A study of Mus musculus with 3 samples.

Results

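Fatty acid oxidation genes were followed in kidney cells of FA-treated mice, as a set of 34 genes among the 27998 genes of the count matrices. They were chosen by function, but with earlier results of these data known. They cover each step from the uptake and activation of fatty acids to the thiolases, with the peroxisomal branch, 2 thioesterases and 2 regulators. FA (folic acid) given in excess injures the kidney tubule, and both groups received it. Kidneys of 2 *Aoah*-/- mice (replicates 2 and 3) and 1 wild-type (WT) mouse (replicate 3), aged 6 to 8 weeks by the sample labels, were collected on day 14, with no untreated mouse analysed here. *Aoah* encodes acyloxyacyl hydrolase, an enzyme that inactivates bacterial lipopolysaccharide. Mutant and WT mice shared the C57/BL6J background and came from common litters. Each mouse gave 1 library of all digested kidney cells, so that the WT group is a single animal.

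PTECs (proximal tubular epithelial cells) draw most of their ATP from fatty acids and have little capacity for glycolysis. In β-oxidation, an acyl-CoA is oxidised, hydrated, oxidised again and cleaved to acetyl-CoA in repeated rounds, in mitochondria for most chains and in peroxisomes for very long ones. Long chains enter mitochondria through the carnitine shuttle, and PPARα, helped by the coactivator PGC-1α, drives transcription of many of these enzymes.

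Droplet sequencing counts every captured RNA molecule by its unique molecular identifier (UMI). UMIs were summed over the cells of a class in each library and scaled to 1000000 UMIs of that sum (CPM). UMIs come from the 3′ end of transcripts, so CPM values do not scale with transcript length. Values in sets of 3 are ordered by library, with the *Aoah*-/- mice first (mouse 2, then mouse 3) and the WT mouse last. The libraries held 158551992 to 167222984 UMIs in 23072 to 25516 barcodes and shared 171 to 176 barcodes pairwise, under 1% of the smaller library. No barcode had fewer than 500, 1672 and 500 UMIs. Classes were rebuilt by clustering, without the 34 genes among the clustering genes, and named from marker lists. The S1/S2-like PTECs (4640, 2531 and 4213 cells) expressed *Slc5a2*, the glucose carrier of the early segment, at 512, 605 and 554 CPM, against 15.3, 16.02 and 22.3 CPM in S3-like PTECs (2764, 2057 and 3942 cells). In the S1/S2 marker list only *Slc22a6* went the other way, at 470, 470 and 421 CPM in S1/S2-like and 1019, 1083 and 982 CPM in S3-like PTECs. *Slc34a1* of that list differed little, at 3995, 4500 and 4127 CPM against 3369, 3653 and 3779 CPM. The S3-like cells were marked by *Slc7a13* at 603, 744 and 807 CPM, while *Cyp7b1*, another S3 marker, reached only 1.95, 6.38 and 12.7 CPM. Injured PTECs numbered 185, 241 and 122 and held the injury marker *Havcr1* at 169, 169.6 and 203 CPM and *Vcam1* at 915, 869 and 769.6 CPM. *Aoah* itself was at 14.5, 11.7 and 25.9 CPM in S1/S2-like PTECs, lower in both *Aoah*-/- libraries but not absent, and where the deletion lies relative to the 3′ reads is not given in the sources used here.

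In S1/S2-like PTECs the 34 genes together made up 7807, 7646 and 7678 CPM. The highest of them was *Acsm2*, a medium-chain acyl-CoA synthetase of the mitochondrial matrix, at 2518, 2857 and 2219 CPM. *Slc27a2*, which takes up and activates long- and very-long-chain fatty acids, followed at 582, 597 and 831 CPM. *Acsm2* was lowest and *Slc27a2* highest in the WT mouse. *Acsl1*, the main long-chain acyl-CoA synthetase of the outer mitochondrial membrane, was at 230.1, 180.3 and 171 CPM. *Acsm1* lay between 75.5 and 88.1 CPM and *Acsm3*, a further matrix synthetase, between 21.2 and 28.1 CPM. *Fabp1*, the liver-type fatty acid binding protein, was nearly absent at 8.95, 4.09 and 2.85 CPM, with no overlap between the *Aoah*-/- libraries and the WT library but a wide gap within the pair.

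The carnitine shuttle genes were all below *Acsl1*. *Cpt1a*, which forms the acylcarnitine at the outer membrane, lay at 87.7 to 119.9 CPM, *Slc25a20*, the carnitine-acylcarnitine carrier, at 43.5 to 57.6 CPM and *Cpt2*, which releases the acyl-CoA in the matrix, at 49.0 to 61.8 CPM. Among the acyl-CoA dehydrogenases, *Acadm* for medium chains was highest, at 332, 325 and 359.7 CPM. *Acadl*, *Acadvl* and *Acads*, for long, very long and short chains, lay between 109.6 and 159 CPM. Electrons pass from these enzymes to the respiratory chain through the electron transfer flavoprotein, whose β subunit gene *Etfb* was at 558, 503 and 655 CPM and whose α subunit gene *Etfa* was at 227, 217 and 245 CPM. *Etfdh*, the oxidoreductase that receives them, was at 51.6 to 56.2 CPM.

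For the remaining steps, *Hadh*, the short-chain hydroxyacyl-CoA dehydrogenase, was at 367, 351 and 363 CPM. *Acaa2*, the mitochondrial thiolase, was at 352, 309 and 318 CPM. *Acat1*, the acetoacetyl-CoA thiolase, was at 313, 303 and 337 CPM. These 3 genes stood above *Echs1*, the short-chain hydratase, and above *Hadha* and *Hadhb*, the subunits of the trifunctional protein for long chains, which together spanned 90.0 to 154.8 CPM. The isomerases and reductase for unsaturated chains (*Eci1*, *Eci2*, *Eci3*, *Decr1*) spanned 49.998 to 119 CPM. In the peroxisomal branch, the thiolase gene *Acaa1b* was highest at 212, 154 and 195 CPM, and *Ehhadh*, *Hsd17b4* and *Acaa1a* spanned 96.4 to 148.9 CPM. The thioesterases *Acot1* and *Acot12* lay between 29.0 and 50.6 CPM. *Ppargc1a*, which encodes PGC-1α, was at 80.6, 87.8 and 85.98 CPM, and *Pdk4*, the kinase that shuts glucose carbon out of the citric acid cycle, at 40.1, 10.5 and 9.07 CPM. *Acaa1a* and *Acaa1b*, and *Eci2* and *Eci3*, are pairs of close paralogs, and *Acsm1*, *Acsm2* and *Acsm3* are related neighbours on chromosome 7, and how reads were divided among them was not tested.

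**Figure D1:**
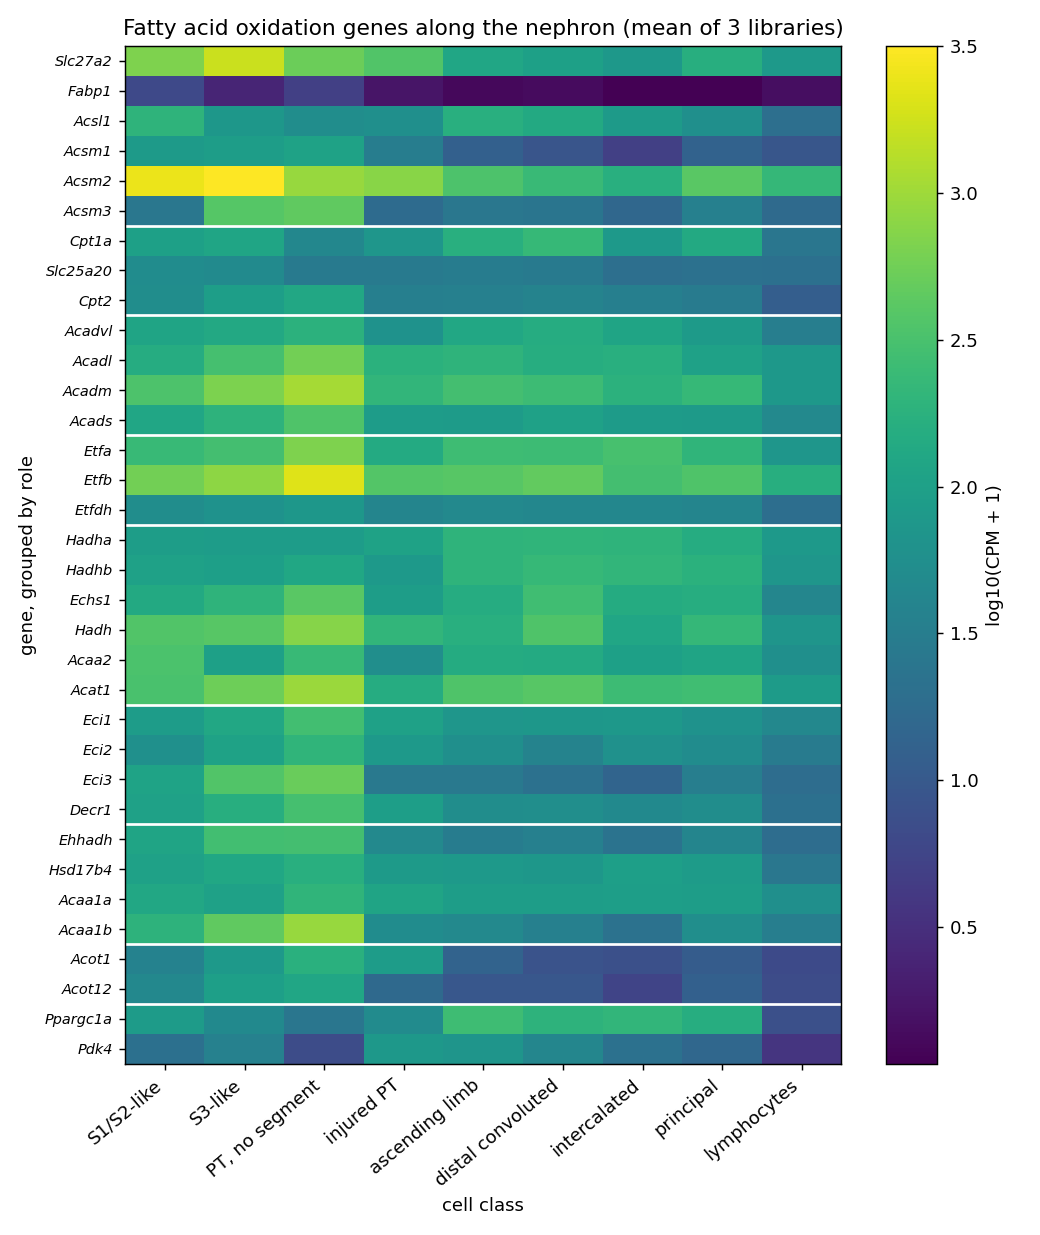
Mean level of each of the 34 genes (rows, grouped by role with white lines between roles) over the 3 libraries in each cell class (columns), as log10(CPM + 1) by colour. The row of *Acsm2* is brightest in S1/S2- and S3-like PTECs, *Ppargc1a* is brighter in the ascending limb and other distal columns than in PTECs, and *Fabp1* is dark throughout.

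The later segment carried more of these transcripts. In S3-like PTECs the 34 genes summed to 11388, 11603 and 11402 CPM, above every S1/S2-like value. In each library 14 of the 34 genes (41.2%) were at least 1.5-fold higher in S3-like than in S1/S2-like cells, where 3.76% of 12772 genes were. A further 4 (11.8%) were at least 1.5-fold lower in every library, against 6.97% of all genes. Since the classes come from clustering the same cells, these differences are given without a test.

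*Acsm3* differed most, at 358, 444 and 359 CPM in S3-like cells, 15.1-fold above its S1/S2-like level. *Eci3*, a peroxisomal isomerase, was at 341, 376 and 354 CPM, 3.21-fold higher. *Slc27a2* was at 1394, 1699 and 1966 CPM, 2.52-fold higher. The levels of the 3 genes in the segments did not overlap in any library. The peroxisomal genes *Ehhadh* (2.46-fold) and *Acaa1b* (2.36-fold), the thioesterases *Acot1* (2.24-fold) and *Acot12* (2.22-fold), and the dehydrogenases *Acadl* (1.98-fold) and *Acadm* (1.92-fold) were higher too. In the opposite direction, *Acaa2* was at 115, 76.5 and 104 CPM in S3-like cells, 3.33-fold lower. *Acsl1* (2.64-fold lower), *Fabp1* and *Ppargc1a* (1.78-fold lower) shared this direction. *Hadha* and *Hadhb* were near level in the segments, with mean log2 differences, S3-like minus S1/S2-like, of -0.04 ± 0.12 and -0.10 ± 0.02 (SD, n = 3 libraries). The shuttle genes spanned 41.5 to 134 CPM in S3-like cells, of which *Cpt2* was 1.71-fold higher than in S1/S2-like cells. The dehydrogenases *Acads* and *Acadvl* spanned 124 to 203 CPM, *Etfb* and *Etfdh* 61.2 to 850.2 CPM, and *Echs1*, *Hadh* and *Acat1* 185 to 541 CPM. *Eci1*, *Eci2* and *Decr1* spanned 101 to 172 CPM, *Hsd17b4* and *Acaa1a* 96.2 to 128 CPM, and *Acsm1* 83.6 to 99.6 CPM.

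A further cluster of PTECs could not be given a segment (809, 381 and 1307 cells). Its cells had a median of 4.05% to 6.20% mitochondrial UMIs, against 21.3% to 25.6% in the S1/S2- and S3-like classes, and *Slc34a1*, the phosphate carrier of the brush border, at only 983, 1291 and 1093 CPM. Here the 34 genes summed to 13334, 12588 and 13225 CPM, the highest of all classes. *Etfb* reached 2161, 1974 and 2196 CPM, *Acadm* 1047, 1099 and 1057 CPM and *Acaa1b* 1087, 748 and 956 CPM. *Acsm2*, by contrast, was at 978, 998 and 774 CPM, below both segments in every library. Against S3-like cells, 16 of the 34 genes were at least 1.5-fold higher in every library (47.1%, against 16.5% of 11664 genes) and 4 were lower (11.8%, against 19.7%). The 4 lower genes were *Acsm2*, *Slc27a2*, *Cpt1a* and *Pdk4*. The higher sum depended on the mitochondrial transcripts in the total: scaled to 1000000 UMIs without the 13 mitochondrial genes, the 34 genes summed to 14076, 13242 and 14031 in these cells and to 14901, 14722 and 14597 in S3-like cells, so that the order turned.

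Distal to the proximal tubule the sum was lower. The 34 genes made up 4093, 4247 and 4562 CPM in ascending limb-like cells and 4193, 4444 and 4823 CPM in distal convoluted tubule-like cells. They made up 3252, 3352 and 3432 CPM in intercalated-like cells and 3399, 4041 and 3636 CPM in principal-like cells. The cluster of principal-like cells had Calb1 and S100g, genes of the connecting tubule, among its leading genes. All of these sums were below those of S1/S2-like cells, with mean log2 differences of -0.84 in the ascending limb, -0.78 in the distal convoluted tubule, -1.20 in intercalated-like and -1.07 in principal-like cells. Much of this came from *Acsm2*: without it, the differences were -0.38, -0.29, -0.70 and -0.66 in the same order.

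Gene by gene, the distal classes held both directions. In ascending limb-like cells 12 of the 34 genes (35.3%) were at least 1.5-fold lower than in S1/S2-like cells in every library, against 13.6% of all genes, and 4 (11.8%) higher, against 21.3%. In distal convoluted tubule-like cells 12 were lower, against 16.7% of all genes, and 5 higher, against 17%. In intercalated-like cells 16 were lower, against 14.3%, and 3 higher, against 27.9%. Principal-like cells had 15 lower, against 14.1%, and 3 higher, against 19.1%. The median log2 difference over the 34 genes was -0.43 in the first 2 classes, -0.74 in intercalated-like and -0.58 in principal-like cells, and over all genes it lay between 0.05 and 0.32.

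Some genes were higher distally than in PTECs. *Ppargc1a* was at 267, 235 and 299 CPM in ascending limb-like cells, 3.11-fold above its S1/S2-like level, and at 216, 194 and 204 CPM in intercalated-like cells. *Hadha* was at 203, 205 and 177 CPM in the ascending limb and 196, 203 and 205 CPM in the distal convoluted tubule, 2.11-fold and 2.18-fold above its S1/S2-like level. *Hadhb* followed *Hadha*, at 206, 231 and 248 CPM in the distal convoluted tubule, and *Cpt1a* was highest there too, at 235, 215 and 235 CPM. None of these distal values overlapped those of S1/S2- or S3-like PTECs. Levels of *Acadvl* overlapped between S3-like PTECs and ascending limb-like cells, and *Etfa* was higher in intercalated-like cells (304, 324 and 301 CPM) than in S3-like cells (294, 289.6 and 291 CPM).

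Other genes were near the level that proximal transcripts reach in cells that do not make them. As a scale, 11 proximal tubule genes outside the 34, such as *Slc34a1* and *Kap*, were read in each class as a percentage of their S1/S2-like level. Their median was 8.93%, 11.9% and 11.7% in ascending limb-like cells, and 9.07%, 7.25% and 9.40% in lymphocytes, which do not express kidney transport genes. In ascending limb-like cells 26 of the 34 genes exceeded the highest of the 11 in every library, and 8 did not: *Slc27a2*, *Fabp1*, *Acsm1*, *Acsm2*, *Eci3*, *Ehhadh*, *Acaa1b* and *Acot12*. *Acsm2*, for instance, was at 264, 373 and 374 CPM there and at 224, 189.6 and 238 CPM in lymphocytes. *Acadm* was at 276, 276 and 326 CPM in the ascending limb against 76.7, 63.95 and 85.2 CPM in lymphocytes, above carry-over on this scale. The count was 26 in the distal convoluted tubule, 26 in intercalated-like and 17 in principal-like cells, and 14 in lymphocytes. Because the scale divides by the S1/S2-like level, a gene much higher in S3-like cells, such as *Acsm3*, can exceed it through carry-over alone. A denominator of S1/S2- and S3-like cells together was added after the values were seen. With it, 26 genes were above in principal-like cells, 25 in the ascending limb and 21 in lymphocytes. The same count over all genes was not made, and these counts do not tell carry-over from expression for single genes.

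Injured PTECs expressed these genes at a lower level. The 34 genes summed to 3925, 3650 and 4289 CPM, a mean log2 difference from S1/S2-like cells of -0.97 ± 0.12 (SD, n = 3 libraries), or -0.70 ± 0.04 without *Acsm2*. In every library 15 of the 34 genes (44.1%) were at least 1.5-fold lower than in S1/S2-like cells, against 6.07% of 12277 genes. Only 2 (5.88%) were at least 1.5-fold higher, *Pdk4* and *Acot1*, against 27.1% of all genes. The median log2 difference was -0.71 over the 34 genes and 0.39 over all genes. Lower levels were not particular to the 34 genes. The proximal tubule genes used above as a scale for carry-over were all lower in injured PTECs in every library too. *Slc34a1*, for instance, was at 1165, 857 and 1084 CPM in injured and 3995, 4500 and 4127 CPM in S1/S2-like cells. *Lrp2* was at 353, 320 and 363 CPM against 1459, 1547 and 1554 CPM. As with the segments, these classes come from clustering and carry no test.

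*Acaa2* showed the largest difference, at 75.2, 47.98 and 43.8 CPM in injured PTECs, 5.93-fold below S1/S2-like cells and also below S3-like cells. *Eci3* was at 17.8, 20.8 and 39.3 CPM, 4.37-fold lower. *Acaa1b* was at 53.5, 38.5 and 60.1 CPM, 3.67-fold lower. The injured and S1/S2-like values of these 3 genes did not overlap. *Acsl1* was at 65.97, 60.1 and 45.3 CPM (3.36-fold lower). *Acsm2* was at 761, 678 and 829 CPM (3.34-fold lower) and remained the highest of the 34 genes in injured cells. *Acsm1* was at 28.1, 35.1 and 28.9 CPM and *Acot12*, a peroxisomal or cytosolic acetyl-CoA thioesterase, at 14.1, 13.6 and 19.3 CPM. *Ehhadh*, the peroxisomal bifunctional enzyme, was at 43.3, 29.8 and 63.1 CPM, and its fold was smallest in the WT mouse. *Fabp1* had 4 UMIs in injured PTECs of *Aoah*-/- mouse 2 and none in the other libraries, a count that allows up to 1.13 CPM in *Aoah*-/- mouse 3 and 2.23 CPM in the WT mouse. The WT limit is within 1.5-fold of the S1/S2-like level of that mouse (2.85 CPM), so its lower value there was not detectable at this depth, and *Fabp1* counts among the 15 by its CPM + 1 alone. *Hadh*, *Acat1*, *Acadvl*, *Cpt2*, *Etfa* and *Slc27a2* completed the 15 lower genes, with folds of 1.60-fold to 2.11-fold.

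*Pdk4* and *Acot1* moved the other way. *Pdk4* was at 113, 47.6 and 64.6 CPM in injured PTECs, 4.24-fold above S1/S2-like cells. *Acot1*, a cytosolic acyl-CoA thioesterase, was at 81.7, 84.3 and 100.2 CPM, 2.46-fold higher. A group of genes stayed within 1.5-fold in every library, among them *Hadha*, *Eci1*, *Eci2*, *Acadl*, *Acaa1a*, *Decr1*, *Hsd17b4*, *Hadhb* and *Cpt1a*. *Hadha* was at 100.04, 102 and 114 CPM and *Acadl* at 159, 165 and 212 CPM in injured PTECs, both within the range or above the S1/S2-like values. By role, the shuttle genes spanned 25.4 to 84.4 CPM in injured PTECs and the dehydrogenases other than *Acadl* 54.03 to 244 CPM. *Etfa*, *Etfb* and *Etfdh* spanned 35.2 to 399 CPM, and *Hadhb*, *Echs1*, *Hadh* and *Acat1* 73.5 to 216 CPM. *Eci1*, *Eci2* and *Decr1* spanned 68.1 to 106 CPM, *Hsd17b4* and *Acaa1a* 74.95 to 122 CPM, and *Ppargc1a* 40.8 to 63.3 CPM.

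Against S3-like cells, a comparison added after the values were seen, 20 of the 34 genes were lower in every library (58.8%, against 6.91% of 12004 genes) and 1 was higher (2.94%, against 33.6%). *Acsm3* was the most different there, 25.5-fold lower, and *Pdk4* was the gene that was higher. Without the mitochondrial genes in the total, the sums were 4409, 4083 and 4819 in injured PTECs and 10760, 10371 and 10105 in S1/S2-like cells. Macrophage markers (8 of 8 with UMIs) summed to 1038, 875 and 1163 CPM in injured PTECs and to 335, 378 and 280.4 CPM in S1/S2-like cells. Most of both sums was *Apoe*, and the other 7 macrophage markers reached 102, 59.7 and 38.6 CPM in injured and 48.3, 40.6 and 28.1 CPM in S1/S2-like cells. Fibroblast markers summed to 54.1, 36.6 and 46.8 CPM and to 3.21, 6.23 and 13.5 CPM, of which *Rgs5*, a pericyte gene, made up 47.6, 32.5 and 34.1 CPM in injured cells. The other 8 fibroblast markers were at 6.49, 4.16 and 12.6 CPM in injured and 1.84, 5.67 and 13.4 CPM in S1/S2-like cells, with overlapping ranges. The part of such RNA in the lower levels was not tested.

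**Figure D2:**
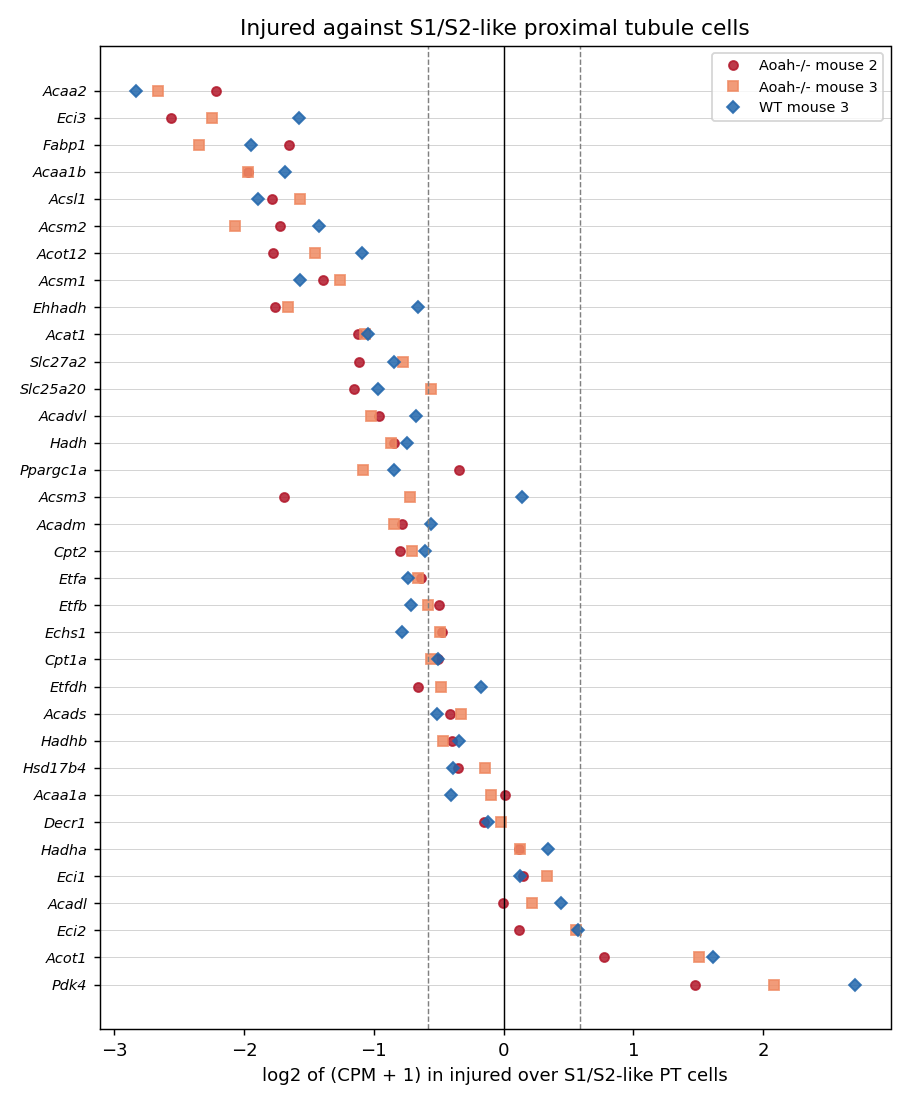
Log2 ratio of injured over S1/S2-like PTECs (x axis, CPM + 1) for each of the 34 genes (y axis, sorted by the mean), 1 point per library. Dashed lines mark 1.5-fold in either direction. Points of 15 genes lie left of the lower line in all 3 libraries, and those of *Pdk4* and *Acot1* lie right of the upper line.

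The genotypes were compared within each class by edgeR's quasi-likelihood test on the summed counts, with Benjamini-Hochberg adjustment over all genes of the class and a threshold of 0.05. With 2 *Aoah*-/- libraries and 1 WT library there is 1 residual degree of freedom, and the WT library is assumed to vary like the *Aoah*-/- ones. In S1/S2-like PTECs none of the 34 genes passed (0 of 34, with 5 at an unadjusted p below 0.05). Among all genes 97 of 12908 passed (0.751%), with 2940 at an unadjusted p below 0.05. DESeq2 called 1 of the 34, *Slc27a2* (246 of 11406 genes with an adjusted p, 2.16%). The median log2 fold change, *Aoah*-/- minus WT, was 0.03 over the 34 genes and 0.00 over all genes. On simulated counts for this class and its 12908 genes, the test recovered 53.2% of genes changed 1.5-fold and 94.8% of those changed 2-fold. The changed genes were drawn only from those with higher counts, and the spread among libraries followed the fitted dispersion. Differences in cell make-up between mice were not simulated, so recovery in the real data may be lower.

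The libraries were also set apart by a rule without a test: the *Aoah*-/- values both above or both below the WT value, with the nearer one farther from WT than from the other *Aoah*-/- value. By this rule 2 of the 34 genes were higher and 9 lower in S1/S2-like PTECs, against 20.1% and 32.6% of all genes. Of the 34 none separated by this rule with a difference of 1.5-fold or more, where 6.29% of all genes did so upward and 5.07% downward. *Pdk4*, which did not separate, had a larger log2 fold change, given further below. Among the genes that separated, *Slc27a2* had the largest difference, 582, 597 and 831 CPM (log2 fold change -0.45 ± 0.07 (SE), adjusted p = 0.0654 by edgeR). It passed the threshold in 7 of 13 fits (the one given here and 12 alternatives), and its fold change was negative in all 13. Within the 3 subclusters of the class, a comparison added after the values were seen, its log2 fold change was -0.18, -0.43 and -0.12, none of them called, while the subclusters made up different shares of each library. The subcluster with the highest *Slc27a2*, 817, 872 and 1082 CPM, held 23.1%, 34.7% and 36.7% of the S1/S2-like cells. Another, with *Slc27a2* at 465, 466 and 500 CPM, held 16.0%, 31.9% and 6.76% of them. Its cells had the highest median of the class, 20247.5 UMIs, and so weighed more in the summed counts. The part of these shares in the genotype differences of the class was not tested. *Etfb* was at 558, 503 and 655 CPM (log2 fold change -0.25 ± 0.10 (SE), adjusted p = 0.203) and *Hadhb* at 109, 105 and 93.3 CPM (log2 fold change 0.25 ± 0.08 (SE), adjusted p = 0.17), differences in opposite directions. *Echs1* (129, 132 and 155 CPM), *Acads* (117, 109.6 and 133 CPM) and *Acaa1a* (121, 122 and 141 CPM) were lower in both *Aoah*-/- libraries by 0.16 to 0.19 on the log2 scale, with adjusted p by edgeR between 0.21 and 0.29. *Acsm2*, highest in both *Aoah*-/- libraries, did not pass either (log2 fold change 0.33 ± 0.09 (SE), adjusted p = 0.14).

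In S3-like PTECs edgeR called none of the 34 genes (3 at an unadjusted p below 0.05, and 0 by DESeq2) and none of 12475 genes (0%, with 1982 at an unadjusted p below 0.05, and by DESeq2 132 of 11266, 1.17%). The median log2 fold change was 0.04. Libraries separated for 9 of the 34 genes, 2 higher and 7 lower, against 17.8% and 27% of all genes. None did so by 1.5-fold, against 5.56% of genes higher and 4.09% lower by that fold. *Acsm2* was at 3183, 3468 and 2833 CPM (log2 fold change 0.27 ± 0.08 (SE), adjusted p = 0.27). *Hadhb* was at 101, 98.2 and 88.2 CPM (log2 fold change 0.21 ± 0.09 (SE), adjusted p = 0.34) and *Ppargc1a* at 43.5, 46.04 and 52.02 CPM (log2 fold change -0.18 ± 0.09 (SE), adjusted p = 0.395). *Acsm1* (83.6, 89.2 and 99.6 CPM), *Acads* (179, 179 and 203 CPM) and *Acaa1a* (102, 96.2 and 108 CPM) were lower by 0.09 to 0.17 on the log2 scale. *Slc27a2* was again lower in both *Aoah*-/- libraries, but they lay farther from each other than the nearer one lay from the WT library.

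Injured PTECs gave 0 of 33 genes tested (7 at an unadjusted p below 0.05, and 0 by DESeq2), with a median log2 fold change of -0.11. Among all genes edgeR called 4 of 10244 (0.039%), with 758 at an unadjusted p below 0.05. DESeq2 called 7 of 10244 (0.0683%). Libraries separated for 3 genes upward and 13 downward, against 18.4% and 21.2% of all genes. They separated by 1.5-fold or more for 3 genes, all lower in *Aoah*-/- mice (3 of 33, against 4.22% of all genes), and for none in the other direction (6.19%). *Acsm3* was at 7.03, 12.5 and 31.2 CPM (log2 fold change -1.61 ± 0.37 (SE), adjusted p = 0.39). *Eci3* was at 17.8, 20.8 and 39.3 CPM (log2 fold change -0.999 ± 0.26 (SE), adjusted p = 0.47). *Ehhadh* was at 43.3, 29.8 and 63.1 CPM (log2 fold change -0.80 ± 0.27 (SE), adjusted p = 0.63). All 3 were higher in S3-like than in S1/S2-like cells, and the S3 marker *Slc7a13* was at 20.01, 20.4 and 69.8 CPM in the injured cells, also highest in the WT library. *Acsm3* of the injured cells was below its lymphocyte level, given further below, in *Aoah*-/- mouse 2. It was near that level in mouse 3 and above it in the WT mouse. With the lymphocyte level subtracted, the median log2 fold change of the tested genes was 0.12. The subtraction treats every UMI of these genes in lymphocytes as carry-over, also any that lymphocytes express, so it cannot gauge carry-over. The parts of S3-like content and of carry-over from other cells in the differences were not tested. *Slc27a2* (269, 348 and 462 CPM) and *Acot12* (14.1, 13.6 and 19.3 CPM) were lower and *Acsl1* (65.97, 60.1 and 45.3 CPM) higher in the *Aoah*-/- libraries, by less than 1.5-fold in the mean. These injured cells amount to 1347495 to 2646718 UMIs per library. These were the smallest totals of the classes compared, except that the cluster without a segment held 2397696 UMIs in *Aoah*-/- mouse 3. Without the barcodes that the doublet caller Scrublet marked, 4 of the genes passed, *Slc27a2*, *Acsm3*, *Eci3* and *Ehhadh*, all lower in *Aoah*-/- mice, as did 97 of 10364 genes in that fit (0.936%).

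The cluster of PTECs without a segment was fitted as well, after its levels had been seen, and no alternative was run on it. There 6 of the 34 genes passed, against 517 of 9586 genes (5.39%), with a median log2 fold change of -0.10 over the 34 genes. The genes that were higher in *Aoah*-/- mice were *Cpt1a* at 50.5, 46.7 and 31.2 CPM (log2 fold change 0.55 ± 0.18 (SE), adjusted p = 0.0441), *Pdk4* at 8.93, 5.84 and 3.02 CPM (log2 fold change 1.25 ± 0.41 (SE), adjusted p = 0.0477) and *Fabp1* at 7.75, 2.09 and 1.76 CPM (log2 fold change 1.54 ± 0.49 (SE), adjusted p = 0.039). *Pdk4* and *Fabp1* were low, and *Fabp1* of *Aoah*-/- mouse 3 was close to the WT value. Those that were lower were *Acsm1* at 100.3, 87.6 and 132 CPM (log2 fold change -0.57 ± 0.13 (SE), adjusted p = 0.000497), *Acadl* at 574, 531 and 652 CPM (log2 fold change -0.33 ± 0.10 (SE), adjusted p = 0.0237) and *Eci3* at 473, 497 and 559 CPM (log2 fold change -0.30 ± 0.10 (SE), adjusted p = 0.0482). The *Aoah*-/- and WT values did not overlap for any of the 6. In 1 of the subclusters of S3-like PTECs fitted alone, *Pdk4* passed too, as did 2.14% of 10006 genes.

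**Figure D3:**
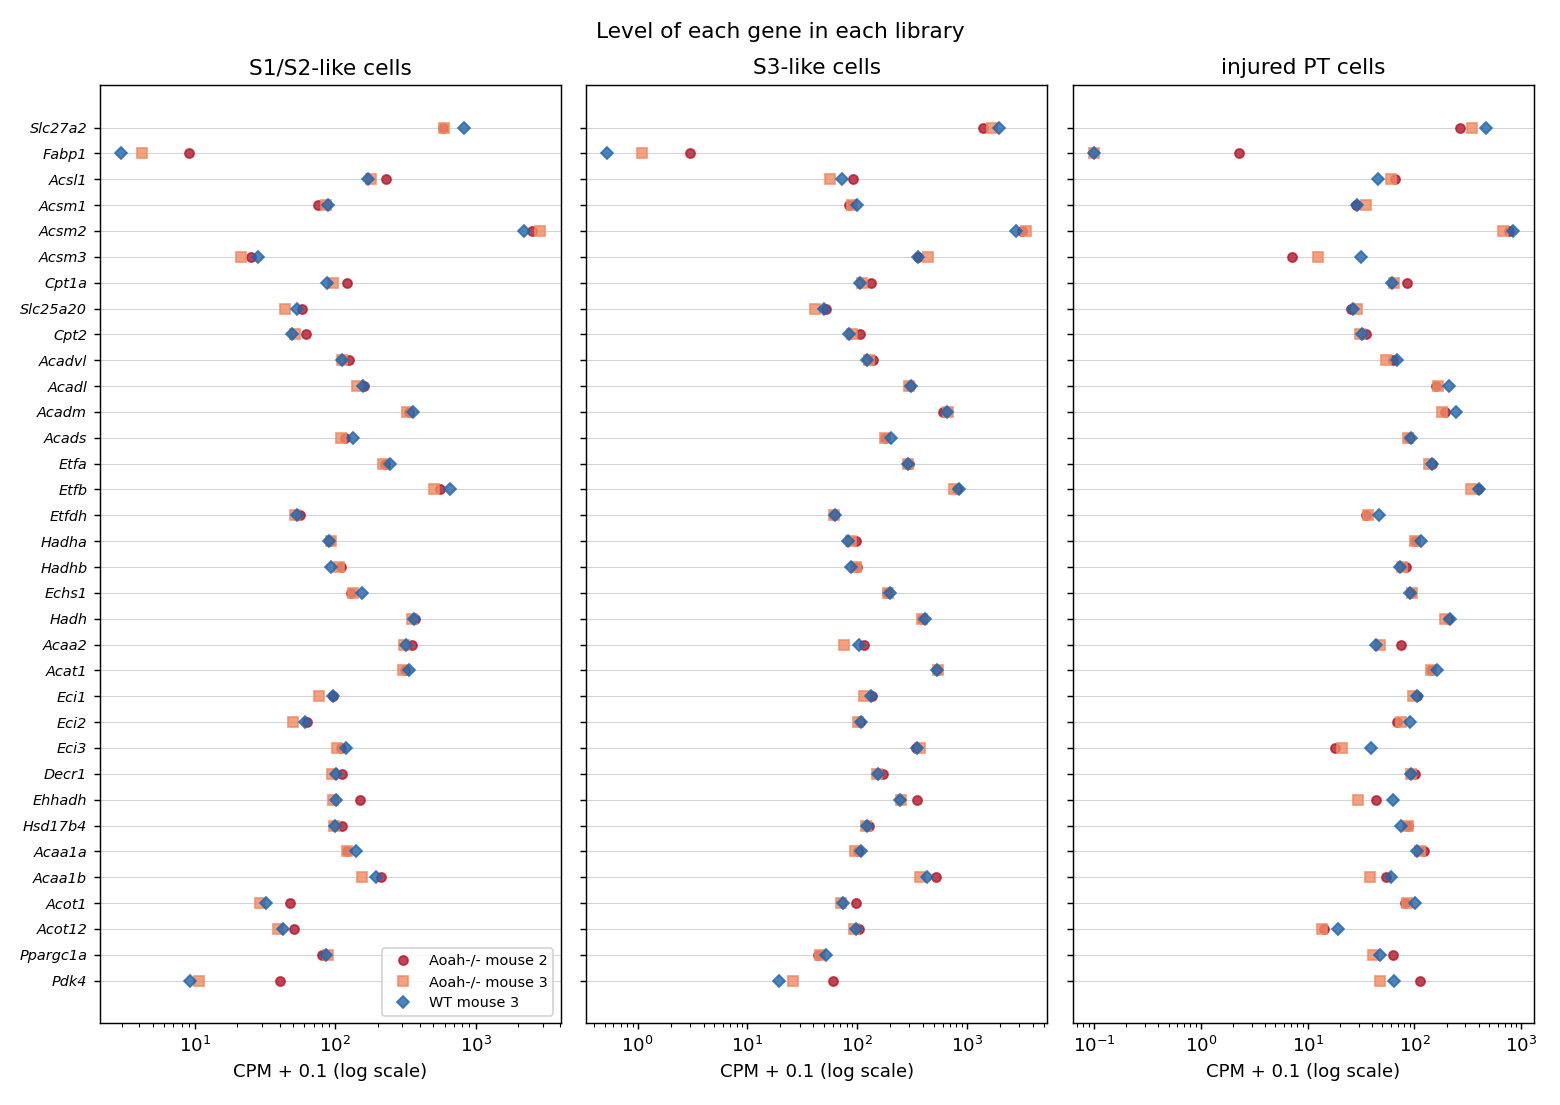
CPM + 0.1 on a log axis (x) of each of the 34 genes (y) in S1/S2-like, S3-like and injured PTECs, 1 point per library. In the first panel the points of most genes lie close together, *Slc27a2* of the WT mouse stands above both *Aoah*-/- mice, and *Pdk4* of *Aoah*-/- mouse 2 stands apart from the other libraries.

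Some genes spread more within the *Aoah*-/- pair than between the genotypes. *Pdk4* was at 40.1, 10.5 and 9.07 CPM in S1/S2-like and 59.9, 26.1 and 19.3 CPM in S3-like PTECs. In both classes *Aoah*-/- mouse 2 was far above the other libraries, and *Aoah*-/- mouse 3 was nearer to the WT mouse but above it. Within every subcluster of these classes, *Pdk4* of *Aoah*-/- mouse 3 was also above WT. Where it was highest, the values were 23.7 against 14.3 CPM (S1/S2-like) and 33.9 against 22.4 CPM (S3-like). The genotype difference of *Pdk4* did not pass edgeR's test in either class (log2 fold change 1.55 ± 0.79 (SE), adjusted p = 0.298 in S1/S2-like cells). *Ehhadh* was at 149, 96.4 and 100.4 CPM in S1/S2-like and 350.2, 251 and 247 CPM in S3-like cells, also highest in *Aoah*-/- mouse 2 in both, with the other 2 libraries close together. *Acot1* was at 47.3, 28.97 and 32.1 CPM and 97.7, 70.5 and 74.8 CPM, and *Fabp1* had its highest value in the same mouse in both classes. In S1/S2-like PTECs 4 of the 34 genes (*Pdk4*, *Fabp1*, *Acot1*, *Ehhadh*) were at least 1.5-fold higher in *Aoah*-/- mouse 2 than in mouse 3, against 1.39% of all genes, and 0 were lower, against 0.713%. In S3-like cells 4 were higher (*Pdk4*, *Fabp1*, *Acsl1*, *Acaa2*, against 1.66%) and 0 lower (against 1.54%). In injured PTECs 3 of 33 were higher (*Pdk4*, *Acaa2*, *Ppargc1a*, against 5.28%) and 1 lower (*Acsm3*, against 5.43%). With 1 library on each side, these are values without a test, and they were looked for after the levels had been seen. *Cyp4a14* and *Cyp4a10*, fatty acid ω-hydroxylases that like these genes are known PPARα targets, were named after their values were seen, at 38.9, 8.37 and 6.81 CPM and 86.03, 34.01 and 39.8 CPM in S1/S2-like cells, also highest in *Aoah*-/- mouse 2. *Ppara* itself spread little, at 51.1, 44.6 and 50.004 CPM. Other genes of the 34 were near level within the pair in these cells, such as *Acadm* (332 and 325 CPM) and *Hadha* (92.1 and 93.3 CPM). The cause of the spread was not tested.

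**Figure D4:**
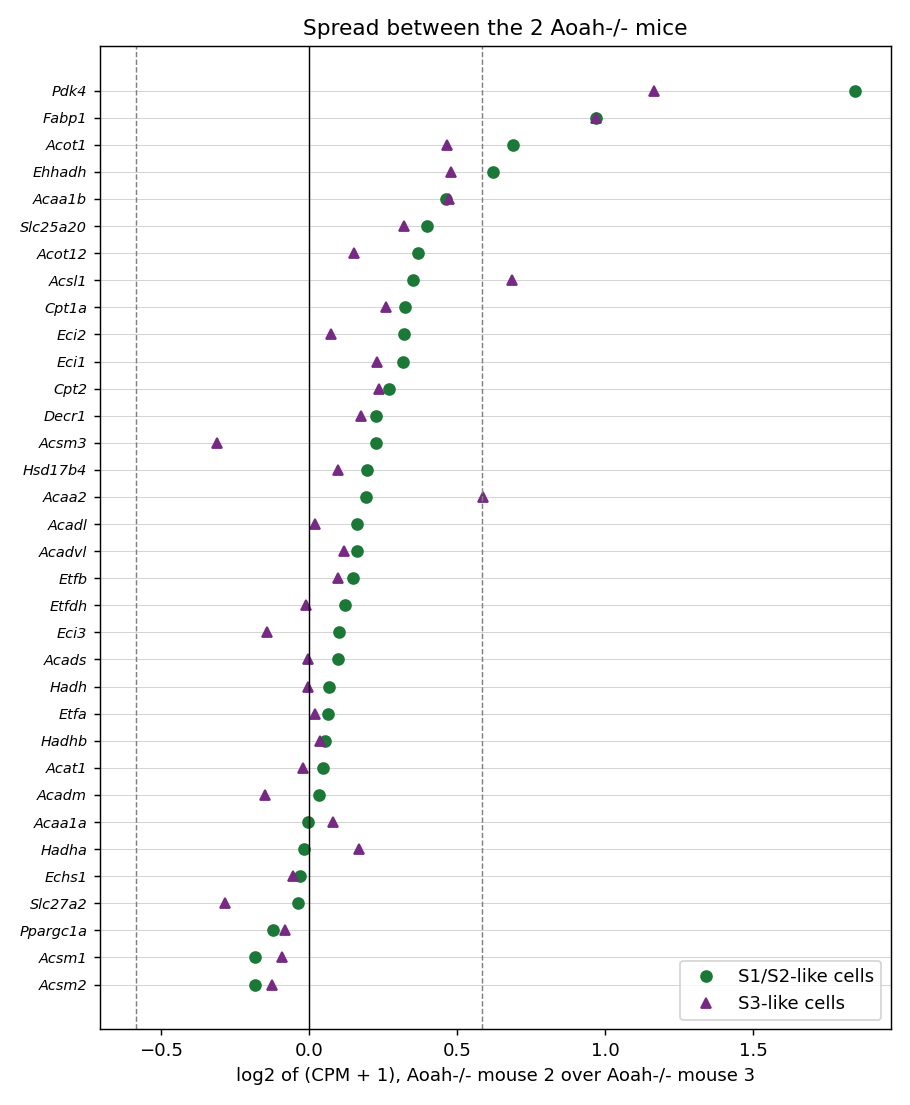
Log2 ratio of *Aoah*-/- mouse 2 over *Aoah*-/- mouse 3 (x axis, CPM + 1) for each of the 34 genes (y axis, sorted by the S1/S2-like value) in S1/S2-like (circles) and S3-like PTECs (triangles). Dashed lines mark 1.5-fold. *Pdk4* is the gene farthest to the right in both classes.

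PPARα binds DNA with RXR at a pair of half-sites 1 base apart (DR1). The promoters of the 34 genes were searched for this pair after the levels had been seen. Binding and its part in the levels were not tested. The letters searched were AGGTCANAGGTCA on both strands, in RefSeq promoters of build GRCm38.p6 from 250 bases before to 50 bases after each start. Promoters were given for 30 of the 34 genes (32 promoters). No exact match was found among them, and 13 of 32851 promoters of all genes held one (0.0396%). With 1 mismatch allowed, 2 of the 32 held a match, those of *Fabp1* and *Acot12*, against 0.554% of all promoters. With 2 allowed, 5 of the 32 did, adding *Echs1*, *Etfa* and *Slc25a20*, against 3.86% of all promoters. The stretches are shown because they are the closest matches among these genes, with the match, read on the opposite strand, in capitals, at chr6:71199804-71199832 (plus strand, 55 to 67 bases before the start) for *Fabp1* and chr13:91741403-91741431 (plus strand, 98 to 110 bases before the start) for *Acot12*.
Fabp1: acaatcacTGACCTATGGCCTatatctga
Acot12: taggacccTGACCTCTCACCTcctaagca
*Fabp1* was among the genes high in *Aoah*-/- mouse 2 and *Acot12*, at 50.6, 38.97 and 42.3 CPM, was highest there by less than 1.5-fold. The promoters of *Pdk4*, *Ehhadh* and *Acot1* held no match within 1 mismatch in this window. Of the genes matched only with 2 mismatches, *Echs1* and *Etfa* were near level within the *Aoah*-/- pair in S1/S2-like cells. *Slc25a20* was higher in *Aoah*-/- mouse 2 there by less than 1.5-fold.

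In the distal classes some of the 34 genes did pass the genotype test. In ascending limb-like cells 2 of 33 genes were lower in *Aoah*-/- mice (208 of 11602 genes passed, 1.79%). *Slc27a2* was at 76.3, 93.7 and 196 CPM (log2 fold change -1.15 ± 0.13 (SE), adjusted p = 0.00216) and *Acsm3* at 15.6, 19.2 and 38.6 CPM (log2 fold change -1.09 ± 0.17 (SE), adjusted p = 0.012). In distal convoluted tubule-like cells the same 2 genes passed (2.06% of 10657 genes did), *Slc27a2* at 51.8, 84.8 and 166 CPM (log2 fold change -1.28 ± 0.15 (SE), adjusted p = 2.01e-06) and *Acsm3* at 14.7, 16.9 and 38.5 CPM (log2 fold change -1.29 ± 0.20 (SE), adjusted p = 9.26e-05). In intercalated-like cells *Slc27a2* passed, at 49.5, 55.1 and 120.5 CPM (log2 fold change -1.17 ± 0.11 (SE), adjusted p = 0.000398), as did 0.73% of 11376 genes. In principal-like cells 0 of 33 passed (1 at an unadjusted p below 0.05), against 0.0281% of 10671 genes (595 at an unadjusted p below 0.05). In these cells the library of *Aoah*-/- mouse 3 was the highest for *Slc27a2* (105, 197 and 174 CPM) and *Acsm3* (27.1, 43.6 and 31.1 CPM).

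Among the other genes whose libraries separated, *Eci3* was at 19.2, 25.4 and 35.2 CPM in the ascending limb and 15.9, 18.05 and 26.6 CPM in the distal convoluted tubule, without passing. Lower in *Aoah*-/- mice too were *Acot12* (7.50, 6.54 and 11.4 CPM) and *Acaa1b* (35.4, 42.4 and 58.3 CPM) in the ascending limb. In the distal convoluted tubule the same held for *Acot1* (6.15, 5.69 and 10.6 CPM), *Acot12* (6.39, 7.85 and 10.9 CPM) and *Ehhadh* (31.9, 27.3 and 41.99 CPM). *Cpt2* was higher in the ascending limb (36.9, 34.7 and 30.4 CPM). The adjusted p of these genes by edgeR ranged from 0.0953 to 0.56. In intercalated-like cells, *Acsm3* (9.55, 12.9 and 21.2 CPM), *Acot12* (4.26, 4.08 and 5.60 CPM), *Cpt2* (31.2, 30.3 and 37.7 CPM) and *Acaa1a* (85.1, 92.5 and 103 CPM) were lower and *Hadha* (194, 206 and 173 CPM) higher in both *Aoah*-/- libraries. In principal-like cells *Hsd17b4* (95.96, 95.99 and 66.4 CPM) and *Acot1* (10.9, 11.7 and 8.04 CPM) were higher and *Ppargc1a* (144, 141 and 177 CPM), *Acot12* (11.2, 10.4 and 12.9 CPM) and *Etfdh* (37.3, 39.8 and 42.3 CPM) lower. None of these passed the test. In the ascending limb, *Eci3*, *Acot12* and *Acaa1b* were among the genes that did not exceed the carry-over scale.

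Both called genes are abundant in S3-like PTECs. In lymphocytes *Slc27a2* was at 72.7, 56.5 and 115 CPM and *Acsm3* at 14.9, 12.1 and 21.8 CPM, both also highest in the WT mouse, while the order within the *Aoah*-/- pair was the reverse of that in the distal classes. *Kap*, an abundant proximal transcript outside the 34 genes, was at 2619, 4346 and 5632 CPM in ascending limb-like cells and 2728, 2091 and 3751 CPM in lymphocytes, with the WT library highest in both. The order of *Kap* within the *Aoah*-/- pair was reversed between them in the same way. The part of free RNA in the distal differences was not tested. The calls depended on the cell filters and the clustering: of 9 fits, *Slc27a2* passed in 3 in the ascending limb and in 9 in intercalated-like cells, and it passed in 5 of 8 in the distal convoluted tubule. In the ascending limb its log2 fold change ranged from -1.50 to 0.11 over these fits, so that the direction turned among them. *Acsm3* passed in 2 of 8 fits in the ascending limb and 5 of 8 in the distal convoluted tubule. Whether the genotype difference of *Slc27a2* differs between classes was not tested.

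**Figure D5:**
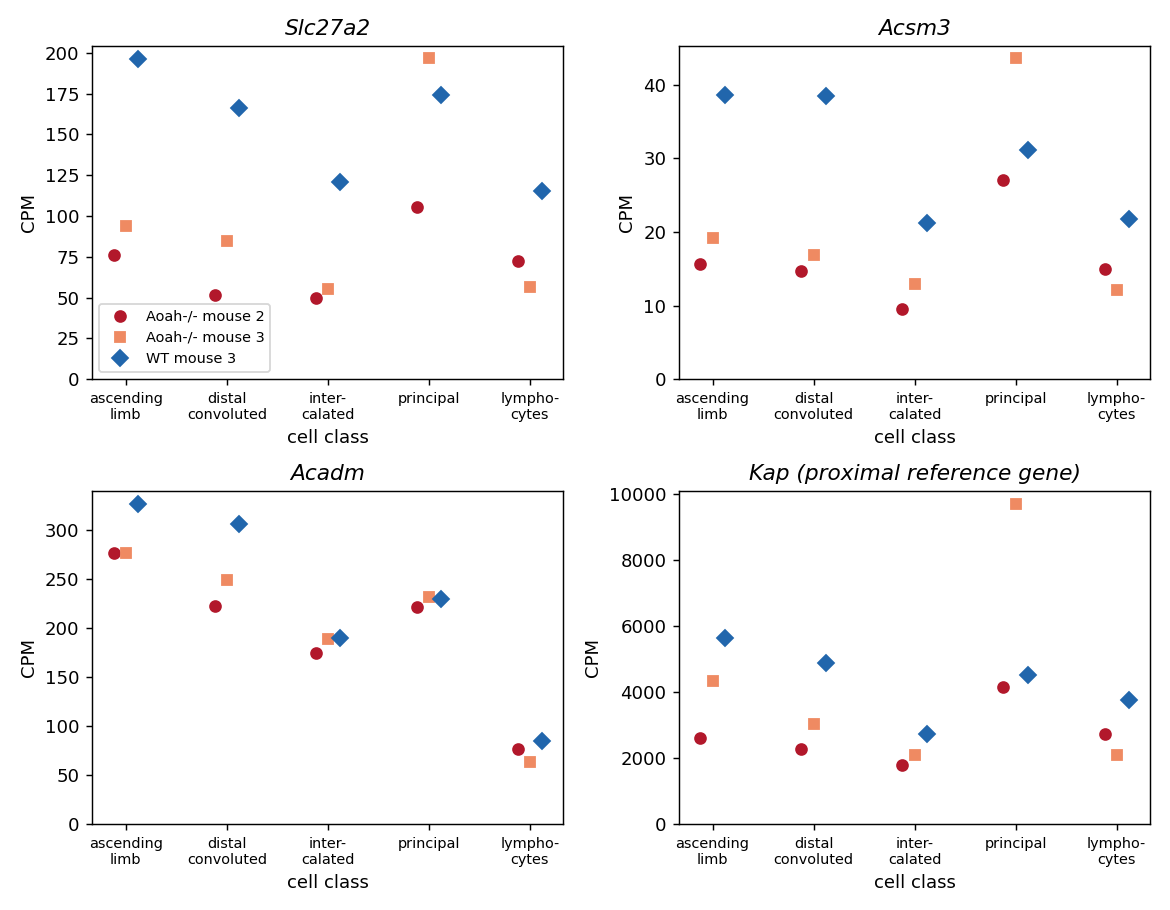
CPM (y axis, from 0) of *Slc27a2*, *Acsm3*, *Acadm* and the proximal reference gene *Kap* in 4 distal classes and lymphocytes (x axis), 1 point per library. For *Slc27a2*, *Acsm3* and *Kap* the WT mouse is highest in the ascending limb, distal convoluted tubule, intercalated-like cells and lymphocytes, while *Acadm* is much lower in lymphocytes than in the distal classes.

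Other genes of the pathway were read from lists of functional neighbours. Of 56 further β-oxidation genes measured, 52 were tested in S1/S2-like PTECs and none passed, with a median log2 fold change of 0.05. Libraries separated by 1.5-fold for *Acsl5*, a long-chain acyl-CoA synthetase, at 13.1, 12.9 and 7.37 CPM (log2 fold change 0.87 ± 0.13 (SE), adjusted p = 0.0597), and for *Acss3*, at 0.852, 0.794 and 1.37 CPM. In injured PTECs 23 of these 52 genes were at least 1.5-fold lower than in S1/S2-like cells in every library (against 6.07% of all genes), with a median log2 difference of -0.59. Among the 52 only *Acsl5* was higher (against 27.1%). *Slc22a5*, the carnitine importer, had a mean log2 difference of -1.59 in injured cells.

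Of 19 regulators tested, none passed in S1/S2-like cells. *Ppara* was at 51.1, 44.6 and 50.004 CPM, its partner *Rxra* at 37.98, 40.99 and 38.05 CPM and *Esrra*, the estrogen-related receptor that acts with PGC-1α, at 79.5, 79.7 and 82.02 CPM. These 3 differed between genotypes by 0.10 or less on the log2 scale in S1/S2-like cells. *Hnf4a*, a proximal identity factor, was at 226, 225 and 280.2 CPM (log2 fold change -0.26 ± 0.07 (SE), adjusted p = 0.13), and *Klf15* was the regulator that separated by 1.5-fold, at 40.8, 51.3 and 70.2 CPM (log2 fold change -0.56 ± 0.13 (SE), adjusted p = 0.11). In injured PTECs 6 of the 19 were lower in every library (against 6.07% of all genes), among them *Ppara* at 16.2, 13.2 and 8.16 CPM and *Esrra* at 41.6, 38.9 and 42.3 CPM, while *Hnf4a* was at 132, 173 and 139.5 CPM and *Rxra* at 30.8, 35.9 and 43.8 CPM. *Prkaa1* was the 1 regulator that was higher (against 27.1%).

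Among 8 ketone body genes, *Slc16a1*, a monocarboxylate carrier, passed in S1/S2-like cells, higher in *Aoah*-/- mice at 88.6, 92.1 and 58.7 CPM (log2 fold change 0.67 ± 0.08 (SE), adjusted p = 0.0474). Its adjusted p ranged from 1.37e-07 to 0.103 over 13 fits. *Slc16a7* separated upward as well, at 1.93, 2.10 and 1.33 CPM, so that 2 of 8 did so by 1.5-fold, as did 6.29% of all genes, the share that also stands behind the counts that follow. *Oxct1*, which activates acetoacetate, was at 729, 799 and 693 CPM and had a mean log2 difference of -1.81 in injured cells. Of 13 fatty acid synthesis genes tested, none passed, and 3 separated upward in *Aoah*-/- mice, *Acacb* (0.819, 0.476 and 0.037 CPM), *Elovl5* (27.3, 25.6 and 16.95 CPM) and *Fads1* (56.7, 49.5 and 34.8 CPM). None of 18 lipid droplet and uptake genes passed, and 2 separated upward, *Fabp4* (4.26, 4.60 and 2.18 CPM) and *Hilpda* (4.98, 4.48 and 2.85 CPM). None of 16 glycolysis genes passed, and 4 separated upward, *Pfkfb3* (2.16, 1.35 and 0.37 CPM), *Pfkp* (33.4, 22.4 and 9.62 CPM), *Slc16a3* (0.623, 0.714 and 0.259 CPM) and *Pkm* (8.23, 7.14 and 4.92 CPM). Several of these separated genes were low. Summed markers of T lymphocytes (7.57, 11.3 and 2.96 CPM) and endothelial cells (9.18, 18.4 and 7.25 CPM) in S1/S2-like PTECs were also lowest in WT. Those of fibroblasts (3.21, 6.23 and 13.5 CPM) were highest in WT. The part of RNA from other cells was not tested. In injured PTECs 0 of 16 glycolysis genes were lower (against 6.07% of all genes) and 5 higher in every library (against 27.1%), with *Pkm* at a mean log2 difference of 3.23.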

How the data were processed

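Single-cell libraries of whole digested kidneys were prepared by a droplet method. The deposited matrices hold counts of UMIs per gene and barcode, made by the authors, whose processing notes name Cell Ranger 3.1.0, STAR, Seurat 4.2.0 and mm10, while the matrix header names Cell Ranger 6.1.2. Cells passed with 200 genes or more and with mitochondrial UMIs of 50% or less (59262 cells). They were clustered with scanpy 1.11.5 (2000 variable genes, 50 components, resolution 1) into 33 clusters, and PTECs were clustered again at resolution 0.5. The 34 genes, *Aoah*, *Cd74*, *Ciita* and MHC class II genes were left out of the variable genes. In the first clustering this removed 9 variable genes, of which only 1 was among the 34. The number removed when PTECs were clustered again was not counted. With the 34 genes kept, no injured PTEC class was found and some distal genotype calls changed, as given further below. Clusters were named "-like" from marker lists, with naming thresholds set after the data were seen. Scrublet marked 2.14%, 0% and 1.26% of cells and so did not work in the library of *Aoah*-/- mouse 3, and doublets were kept. Free RNA was not removed.

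UMIs were summed per library and class. Genes with at least 30 UMIs over the libraries were tested with edgeR 4.0.16 (TMM, glmQLFit, glmQLFTest), with DESeq2 1.42.0 as an alternative, after a test on simulated data. Replicates are single mice. Classes were compared within each library on log2(CPM + 1), which understates the change of low genes, as ratios without a test, for genes with at least 60 UMIs over both classes. Limits for counts of 0 take 3 UMIs and cover counting error only. The 34 genes and the lists were chosen with earlier results of these data known. Values per library are given for the 10 highest genes in S1/S2-like cells, the 10 largest injured folds, every gene called and the 6 largest separated differences per genotype comparison, and for up to 4 genes per list.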

Additional observations from a re-analysis of the deposited data

Results flagged for a closer look

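For 6 genes both *Aoah*-/- libraries lay above the WT library in 1 class of PTECs and both below it in another. *Acsm2* was higher in S1/S2-like (log2 fold change 0.33) and S3-like cells (0.27) and lower in injured cells (-0.19), at 761, 678 and 829 CPM. *Hadha* had the same directions, with log2 fold changes of 0.0923, 0.22 and -0.17, at 92.1, 93.3 and 90.01 CPM in S1/S2-like and 100.04, 102 and 114 CPM in injured cells. *Echs1* (-0.19, -0.0327 and 0.0732) and *Acaa1a* (-0.16, -0.0888 and 0.16) were lower in the first 2 classes and higher in injured cells. *Acadvl* (0.15 and -0.23) and *Ehhadh* (0.32 and -0.80) were higher in S3-like and lower in injured cells. For *Hadha* and *Echs1*, the nearer *Aoah*-/- library lay farther from WT than from the other one in S1/S2-like and in injured cells. None of the 6 passed edgeR's test in these classes, and the difference between the classes was not tested.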

How the results depend on the processing

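In S1/S2-like PTECs 0 of the 34 genes passed as reported. With at most 20% mitochondrial UMIs, without Scrublet doublets, with 30 principal components, without TMM or by DESeq2 1 passed, with the same lowest UMI total in every library 2, at resolution 2 3, and with no filter on low counts 8. *Slc27a2* was among them under each of these except the mitochondrial limit, under which *Acsm3* passed. The log2 fold change of *Acsm3* ranged from -0.93 to 1.51 over the fits. In injured PTECs, 4 passed without Scrublet doublets and 2 with no filter on low counts. Subcluster 1 of the S3-like cells fitted alone, an alternative added after seeing the data, gave 1 (*Pdk4*, with 214 of 10006 genes called) and a median log2 fold change of -0.0476. The S3-like median was -0.0735 with at most 20% mitochondrial UMIs. The injured median was 0.10 at resolution 2 and 0.12 with the lymphocyte level subtracted. Leaving out either *Aoah*-/- library gave medians of -0.06 to 0.14 in S1/S2-like, -0.03 to 0.10 in S3-like and -0.17 to -0.05 in injured cells.

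For the summed level, the log2 ratio to S1/S2-like cells kept its sign under every alternative run. For S3-like cells it was 0.57, and 0.52 with at most 20% mitochondrial UMIs, 0.60 with at least 500 genes, 0.46 without Scrublet doublets, 0.47 at resolution 2, 0.50 without mitochondrial genes in the total, 0.49 as a mean per cell and 0.62 with the lymphocyte level subtracted. For the ascending limb it was -0.54 with the mitochondrial limit, -1.02 without Scrublet doublets, -0.94 at resolution 2, -0.94 with the 34 genes kept for clustering and -1.02 with lymphocytes subtracted. For the distal convoluted tubule it was -0.91 without Scrublet doublets and -1.04 with lymphocytes subtracted. For intercalated-like cells it was -1.31 with the mitochondrial limit, -1.31 without Scrublet doublets, -1.27 at resolution 2, -1.29 without mitochondrial genes and -1.51 with lymphocytes subtracted. For principal-like cells it was -1.42 at resolution 2 and -1.42 with lymphocytes subtracted. For injured PTECs it was -1.26 with the mitochondrial limit, -1.09 with the same lowest UMI total, -1.23 without mitochondrial genes, -1.16 as a mean per cell and -0.82 with lymphocytes subtracted. The number of genes lower in injured PTECs ranged from 12 to 22.

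Cell and clustering alternatives for the distal genotype comparisons were added after seeing the data. In the ascending limb 1 gene passed with the mitochondrial limit or with the 34 genes kept for clustering, and 0 with at least 500 genes, the same lowest UMI total, without Scrublet doublets, at resolution 2 or with 30 components. In the distal convoluted tubule 0 passed at resolution 2, with 30 components or with the 34 genes kept. In intercalated-like cells 2 passed with the mitochondrial limit and 3 with at least 500 genes. The cause of these changes was not tested. No injured PTEC class was found with at least 500 genes, 30 components or the 34 genes kept, and no distal convoluted tubule or principal-like class with the mitochondrial limit, so these gave no value. No paired analysis was made, because the labels give only replicate numbers and do not say that equal numbers mark a pair. The single WT mouse, the residual degree of freedom and the small injured class limit every genotype comparison.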
